A study of Danio rerio with 14 samples.

Results

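The 7144 places at which Rad21 was enriched over input chromatin in zebrafish embryos of 4.5 hours post fertilisation (hpf) are described here. Rad21 is the kleisin subunit that closes the ring of the cohesin complex. Each place is a peak, a short interval in which sequenced tags from chromatin immunoprecipitation (ChIP-seq) piled up. All 7144 peaks of the list lay on chromosomes 1 to 25 and all were used, out of 41309 peaks in the 4 lists of the series. The sample was whole embryos of strain AB/PS, with no transgene or treatment in the labels. The Rad21 group had 2 libraries made with a custom antibody, and the Input group had 2 libraries of chromatin of the same stage with no antibody. The embryos came from 2 separate collections of 1000 pooled embryos, and chromatin was sheared in 10 cycles to pieces of 200 to 500 bp. A whole embryo mixes all its cell types, so binding in more cells and stronger binding in each cell cannot be told apart. The list holds 1 position per peak and no value per library, so nothing below has a spread between replicates and no test over samples could be made. Positions are 1-based on the Zv9 build. Intervals are exact 95% intervals that cover counting error only, and they treat peaks as independent, which neighbours need not be.

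Cohesin rings hold sister chromatids together until cell division and also draw out loops of chromatin, and CTCF is a DNA-binding protein at which loop growth is known to halt. Rad21 is the subunit that is cut when sister chromatids part. In the zebrafish the early embryo lives on maternal RNA, and the stage studied here follows the main start of transcription from the embryo's own genome.

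Most of the candidate places were removed by the comparison with input. The header of the list counts 18663 putative peaks with at least 11 tags, 7.54 times the 1.458 tags a place would hold by even spread. The input filter required 4-fold more tags than in the input and a Poisson p-value threshold of 0.0001. It removed 11034 of the putative peaks, or 59.1%, and left 7629. The local filter required 4-fold more tags than in the surrounding 10000 bp and a Poisson p-value threshold of 0.0001. It removed 484, and 1 more was dropped because its tags sat on too few positions. These losses leave exactly 7144, or 38.3% of the candidates. For Rad21 at 10 hpf the same rules removed 16425 of 35851 candidates by input, or 45.8%, and kept 50.4%. Input took a larger share of the candidates at the earlier stage, a difference between 2 single lists that was not tested. The listed places held 146350 tags at 4.5 hpf, 20.5 per peak or 14.05 times the even spread, and all peaks together covered 0.0890% of the genome size in the header.

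The peak names carry a trace of the candidates that were removed. Each name holds the chromosome and a running number, and the highest numbers on the 25 chromosomes add up to 18569, only 94 short of the 18663 candidates. The sums for the other 2 lists made by the same program, 35772 for Rad21 and 90038 for CTCF at 10 hpf, fell 79 and 179 short of their headers' candidates. The numbers are therefore read here as given to the candidates before the filters, which the header does not state, and missing numbers as candidates that were removed. On this reading removal reached far into the low numbers, which sit early in the list. Of the numbers in the first decile on each chromosome 1124 of 1846 were listed, or 60.9% (58.6 to 63.1), and in the last decile 597 of 1868, or 32.0% (29.8 to 34.1). In the first decile of numbers the Rad21 list of 10 hpf held 93.2% (92.3 to 94.0) and the CTCF list 39.7% (38.6 to 40.7), on either side of the 60.9% at 4.5 hpf. The 722 missing numbers of the first decile at 4.5 hpf exceed the 485 that the local and positional rules removed anywhere, so on this reading at least 237 of them fell to the input.

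Rad21 peaks were spread over every chromosome at densities within a narrow band. The mean was 5.27 peaks per Mb, or 1 peak in 190 kb, and chromosomes ranged from 4.11 to 6.29 per Mb, a ratio of 1.53. The densest were chromosome 19 with 316 peaks (6.29 per Mb, 1.19 times the mean, 1.07 to 1.33), chromosome 11 with 290 (6.22 per Mb, 1.18 times, 1.05 to 1.32) and chromosome 25 with 235 (6.11 per Mb, 1.16 times, 1.02 to 1.32). The sparsest were chromosome 4 with 255 (4.11 per Mb, 0.78 times, 0.69 to 0.88), chromosome 18 with 220 (4.41 per Mb, 0.84 times, 0.73 to 0.96) and chromosome 24 with 203 (4.62 per Mb, 0.88 times, 0.76 to 1.01). In all, 6 chromosomes had an interval wholly above the mean, 2 had one wholly below it, and 17 included it. In the first 3572 rows chromosome 18 stood at 0.97 times the mean (0.81 to 1.16) and chromosome 24 at 0.68 times (0.54 to 0.85), and the interval of chromosome 25 took in the mean (1.18 times, 0.97 to 1.41). There 6 chromosomes in place of 8 had an interval that left it out. Density was only weakly and inversely related to chromosome length (Pearson's r = -0.30, Spearman's rho = -0.24 over 25 chromosomes of 1 list, a description without interval or test).

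**Figure D1:**
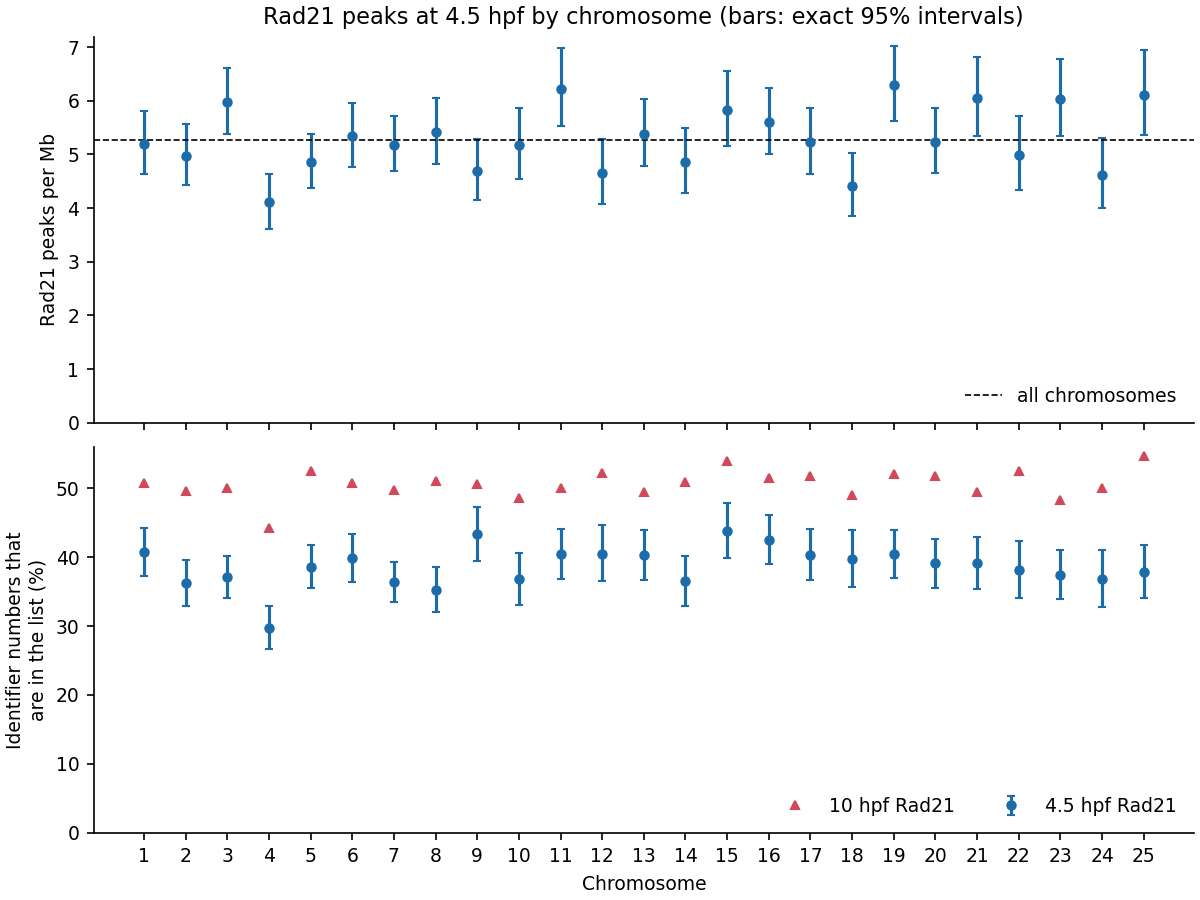
Upper panel: Rad21 peaks per Mb at 4.5 hpf on each chromosome with exact 95% intervals, the dashed line marking the mean of 5.27 per Mb. Lower panel: percent of the identifier numbers of each chromosome that are in the list, at 4.5 hpf with intervals and at 10 hpf as triangles. Chromosome 4 is lowest in both panels, at 4.11 peaks per Mb and 29.7% of numbers.

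Chromosome 4 was sparse on its long arm alone. Up to 24 Mb it held 171 peaks, or 7.13 per Mb (6.10 to 8.28), 1.35 times the mean of the genome. Over the 38.1 Mb beyond, the repeat-rich long arm, it held 84 peaks, or 2.21 per Mb (1.76 to 2.73), 0.42 times the mean. In steps of 5 Mb the counts stayed at 33 to 44 as far as 20 Mb, dropped to 5 between 40 and 45 Mb and again between 45 and 50 Mb, and came back to 20 between 55 and 60 Mb. That last step holds the first peak of the whole list, 4:56016345-56016513.

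Candidates were not scarce on chromosome 4, but few of them were listed. Its numbers ran to 859, or 13.8 per Mb, inside the range of the other chromosomes, yet 29.7% (26.6 to 32.9) of them were listed. The other chromosomes ran from 35.3% on chromosome 8 to 43.8% on chromosome 15. Among the first decile of its numbers 24 of 85 were listed, or 28.2%, against 36.9% on chromosome 10, the next lowest, and 77.8% on chromosome 9, the highest. The first peak of the list has number 15 on chromosome 4, and only 4 of the 14 lower numbers there are listed. At 10 hpf chromosome 4 was again the lowest, with 44.3% of its numbers listed. The removed candidates carry no position in the file, so the arm they lay on was not determined.

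Along the chromosomes Rad21 peaks were dense at both tips and in the middle, and sparse between. The outermost twentieth of length held 439 peaks at the start (1.23 times the mean, 1.12 to 1.35) and 433 at the end (1.21 times, 1.10 to 1.33). Twentieths 8 to 12, which are 5 of the 20 equal parts of length, held 2069 peaks, or 29.0% (27.9 to 30.03). Number 11 was highest of all at 454 peaks (1.27 times, 1.16 to 1.39). The intervals of numbers 9, 11 and 12 lay above the mean, and those of 8 and 10 included it (both 1.09 times, 0.99 to 1.21). This set is not centred on the midpoint, which lies between 10 and 11. It leaves out number 13 (1.05 times, 0.94 to 1.16) and was not set in advance, so the interval of its share does not cover that choice. The lowest was the fifteenth, with 287 peaks (0.80 times, 0.71 to 0.90).

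The rise at the tips lay within about 1 Mb of the end. Within 250 kb of an end the density was 13.7 per Mb (11.7 to 15.9), 2.60 times the mean. From 250 to 500 kb it was 10.0 per Mb, 1.90 times the mean, and from 0.5 to 1 Mb 6.80 per Mb, 1.29 times. Between 1 and 3 Mb it stood at the mean, and from 3 to 5 Mb below it, at 4.31 per Mb (3.91 to 4.74). The last position of a chromosome was taken from the outermost listed peak, on 4 chromosomes a peak of this very list, which favours the far ends. The near ends, which start at base 1, are free of that and held 12.5 peaks per Mb (9.86 to 15.6) within 250 kb, 2.37 times the mean, against 14.9 at the far ends.

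Most tips took part. Of the 50 ends, 46 had more peaks in their outer 500 kb than the mean of 2.63, the median was 6 and 1 end had none. The fullest were the far end of chromosome 21 with 13 peaks, the far end of chromosome 1 with 12, and then the near end of chromosome 22 and the far ends of chromosomes 6 and 7 with 10 each, picked after the counts were seen. Leaving out the 3 fullest ends moved the density of the outer 500 kb from 11.8 to 11.1 per Mb. The 296 peaks of the outer 500 kb lay at a Rad21 peak of 10 hpf in 50.3% of cases (44.5 to 56.2), against 40.8% (39.7 to 42.0) elsewhere. They lay at a CTCF peak of 10 hpf in 19.3% (14.9 to 24.2), against 11.6% (10.9 to 12.4). The tips also had more of their peaks early in the list, 59.8% (54.0 to 65.4) in the first 3572 rows against 49.6% (48.4 to 50.8) elsewhere, and early rows were found again more often everywhere. Within the first 3572 rows the shares at Rad21 peaks of 10 hpf were 68.9% (61.5 to 75.7) at the tips and 61.9% (60.2 to 63.5) elsewhere, and within the later rows 22.7% (15.5 to 31.3) and 20.2% (18.8 to 21.5), with intervals that overlap. For CTCF peaks they were 24.9% (18.7 to 31.9) and 15.5% (14.3 to 16.8) in the first 3572 rows, and 10.9% (5.95 to 18.0) and 7.79% (6.92 to 8.73) in the later ones.

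The other lists shared these features in part. By twentieths the tips of the Rad21 list of 10 hpf stood at 0.97 (0.91 to 1.04) and 0.89 (0.83 to 0.95) times its mean, and those of the CTCF list at 1.21 (1.13 to 1.30) and 1.11 (1.03 to 1.19). Rad21 at 10 hpf was also dense in the middle, at 1.37 times its mean just before the midpoint (1.30 to 1.45), where CTCF stood at 1.00 (0.93 to 1.08). Within 250 kb of an end the excess was 2.60-fold at 4.5 hpf (2.22 to 3.02), 1.69-fold for Rad21 at 10 hpf (1.50 to 1.90) and 1.83-fold for CTCF (1.61 to 2.08). The differences between lists were not tested.

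**Figure D2:**
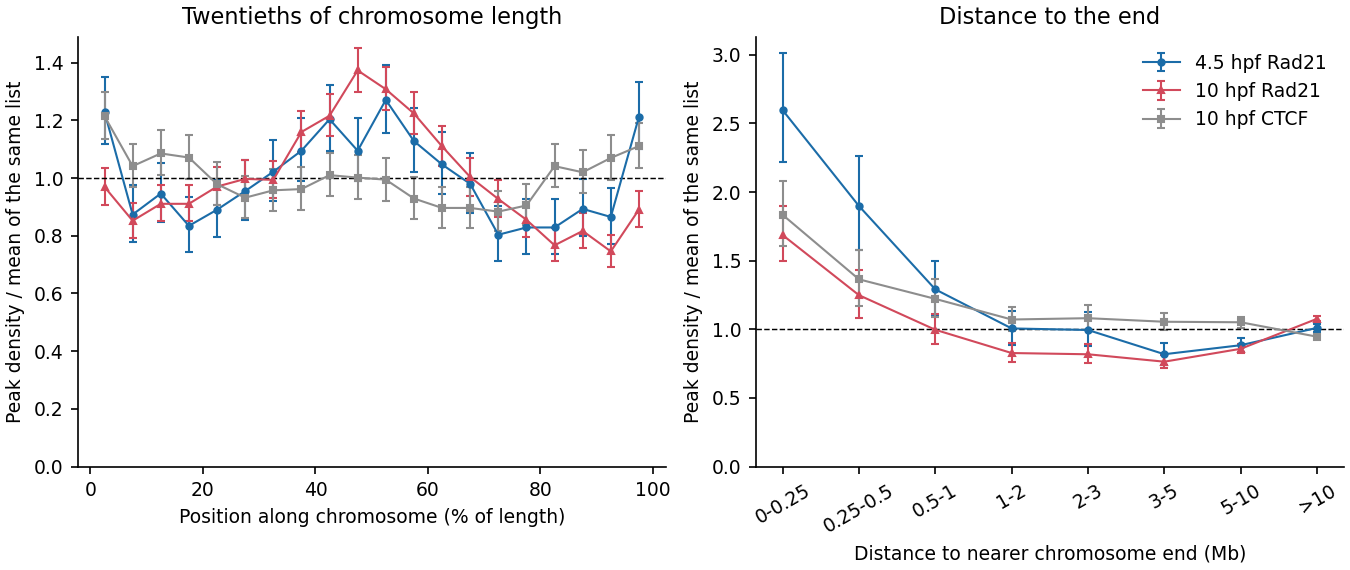
Density of peaks relative to the mean of the same list, by twentieths of chromosome length (left) and by distance to the nearer chromosome end in Mb (right), for the 4.5 hpf Rad21 list and both 10 hpf lists, with exact 95% intervals. Rad21 at 4.5 hpf is high at both tips and in the middle, and reaches 2.60 times its mean in the outer 250 kb.

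Rad21 peaks mostly stood alone, with distances that varied over orders of magnitude. The median distance from a peak's centre to the nearest other was 47.2 kb (quartiles 16.9 and 109 kb). Between neighbours along the chromosome the median was 100.3 kb against a mean of 190 kb, a ratio of 0.53, so many short distances were set against few long ones. Peaks placed at random would also have a median below the mean, and no comparison with random placement was made. A neighbour lay within 1 kb for 132 peaks (1.85%), within 50 kb for 3703 (51.8%) and within 100 kb for 5174 (72.4%). At the other extreme, 88 peaks (1.23%) had none within 500 kb.

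Counted per kb of distance, spacings were most frequent between 0.5 and 1 kb. The class below 0.5 kb, most of which lies under the program's minimum of 336 bp, held 15 spacings, or 30 per kb. Between 0.5 and 1 kb there were 51 spacings, or 102 per kb of distance, falling to 62.4 per kb between 5 and 10 kb, 25.7 between 50 and 100 kb and 4.98 between 200 and 500 kb. The closest pair, 2:35487604-35487772 and 2:35487937-35488105, had centres 333 bp apart, the only pair under the minimum. It was followed by a pair on chromosome 5 at 32226808 (354 bp), one on chromosome 25 at 37346378 (374 bp), one on chromosome 24 at 1133978 (390 bp) and one on chromosome 8 at 24144410 (391 bp). The close pairs on chromosomes 25 and 24 stood early in the list, at rows 555 and 489 and at rows 918 and 695. The loneliest peaks were 1:58431423-58431591, 1.50 Mb from any other, and 2 on the long arm of chromosome 4, 4:36916697-36916865 (1.41 Mb) and 4:45535408-45535576 (1.22 Mb). The first and the last of these 3 overlapped a Rad21 peak of 10 hpf.

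**Figure D3:**
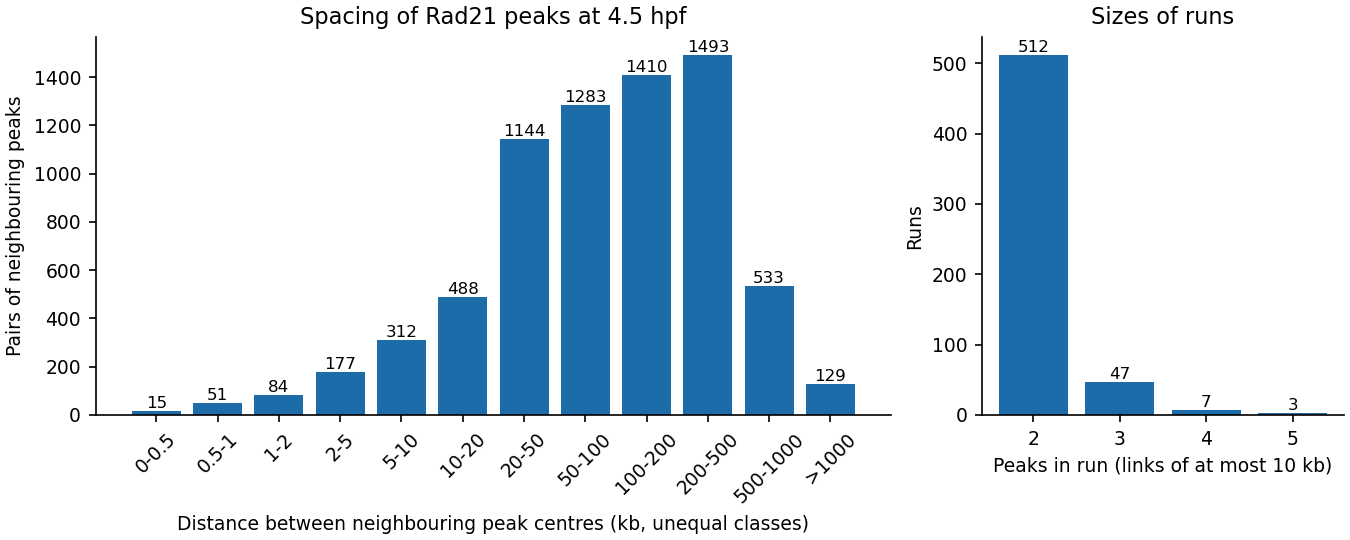
Left: number of pairs of neighbouring Rad21 peaks at 4.5 hpf by the distance between their centres in kb, in classes of unequal width. Right: number of runs by size, a run being peaks linked by distances of at most 10 kb. Most pairs lie 20 to 500 kb apart, and 512 of 569 runs hold 2 peaks.

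Runs of neighbouring peaks were short. Linking peaks at most 10 kb apart gave 569 runs that took in 1208 peaks, or 16.9% (16.05 to 17.8), with a median span of 5.57 kb. Of these runs 512 were pairs, 47 had 3 peaks, 7 had 4 and 3 had 5. The largest were 7:6809060-6822271, 1:60327961-60347786 and 2:6681997-6704306, each of 5 peaks, followed by 25:36105914-36118948 and 7:76816090-76829472, the shortest of the 7 runs with 4. The run on chromosome 1 lies at the very end of the chromosome's listed sequence. The local filter over the surrounding 10000 bp removed 484 candidates, and whether close neighbours were among them was not tested.

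Chromosome 7 was richest in runs and chromosome 20 poorest. On chromosome 7, 104 of 400 peaks (26.0%, 21.8 to 30.6) belonged to a run, and on chromosome 20, 32 of 292 (11.0%, 7.62 to 15.1). Neither stood apart from the next in rank. Chromosome 14 had 22.2% (17.3 to 27.8) and chromosome 10 had 11.2% (7.51 to 15.9), with intervals that overlap theirs. On chromosome 4 beyond 24 Mb 5 of 84 did (5.95%, 1.96 to 13.3). In the outer 500 kb of chromosomes the share was 27.4% (22.4 to 32.8), against 16.5% (15.6 to 17.4) elsewhere. A share in runs also rises with density, which was 11.8 peaks per Mb in the outer 500 kb and 2.21 on chromosome 4 beyond 24 Mb. What these densities alone would give was not tested.

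Peaks in runs overlapped a Rad21 peak of 10 hpf in 44.0% of cases (41.1 to 46.8) and peaks alone in 40.7% (39.4 to 41.9), a difference of 3.27 percentage points (0.18 to 6.39). This difference does not hold the place in the list fixed, a point taken up below. For CTCF peaks the shares were 12.6% and 11.8%, a difference of 0.77 points (-1.23 to 2.93). Of the 512 pairs, 103 had both peaks found at 10 hpf, 246 had 1 and 163 had none, which was not compared with what the share of 44.0% alone would give. The run of 5 on chromosome 7 had 1 of its peaks found, that on chromosome 1 had 3 and that on chromosome 2 had 2. The named runs of 4 on chromosomes 25 and 7 had none found, while each other run of 4 had 1 or 2. Linked neighbours stood closer together in the list, by a median of 1659 rows, against 2066 rows for neighbours farther than 10 kb.

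The densest megabases held about 3 to 4 times the mean. Over 1369 windows of 1 Mb the median was 5 peaks (quartiles 3 and 7), and the variance of the full windows was 2.09 times their mean. The fullest were chromosome 14 from 31 Mb with 19 peaks, then chromosome 20 from 23 Mb, chromosome 3 from 40 Mb and chromosome 5 from 34 Mb with 18 each, and chromosome 14 from 33 Mb with 17. In the same order these windows held 26, 23, 26, 39 and 31 Rad21 peaks at 10 hpf, where the median window held 12. Of their 4.5 hpf peaks 11, 8, 9, 9 and 8 were found again, where the share over all 7144 peaks was 41.2%. All 5 were above the median window at 10 hpf. Over 1344 full windows the counts of both stages rose together (Pearson's r = 0.59, Spearman's rho = 0.60, a description over windows that share their sequence).

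Long empty stretches were scattered over nearly all chromosomes. There were 129 stretches of over 1 Mb without a Rad21 peak, 172 Mb or 12.7% of the length, of which chromosome 4 held 14 and chromosome 10 none. The longest were 3:2570846-5068576 (2.50 Mb), 9:53721545-56197849 (2.48 Mb), 7:4342585-6809059 (2.47 Mb), 7:1602378-3882327 (2.28 Mb) and 12:41013718-43173523 (2.16 Mb). At mean density each would hold 11.4 to 13.2 peaks. Both stretches on chromosome 7 are parted by 460 kb with 4 peaks. The one from 4342585 ends at the run of 5 peaks named above, so that an empty and a crowded piece adjoin. The loneliest peak, on chromosome 1, closes an empty stretch of 1.67 Mb.

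Some of these stretches held almost no Rad21 peak at 10 hpf and others held many. The stretch on chromosome 9 held 25 Rad21 peaks at 10 hpf and 23 CTCF peaks, where 33.0 Rad21 peaks would lie at that list's mean density. The stretch on chromosome 3 held 1 Rad21 peak at 10 hpf where 33.3 would lie, and that on chromosome 12 held 1 where 28.8 would, but 15 CTCF peaks. Both stretches on chromosome 7 held 5 and 3 Rad21 peaks. Over the 20 longest stretches, 38.6 Mb, there were 193 Rad21 peaks at 10 hpf, 0.37 times the mean density, and 265 CTCF peaks, 0.66 times. The 47 empty 1 Mb windows (3.43%) held a median of 4 Rad21 peaks at 10 hpf, against 12 over all windows.

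**Figure D4:**
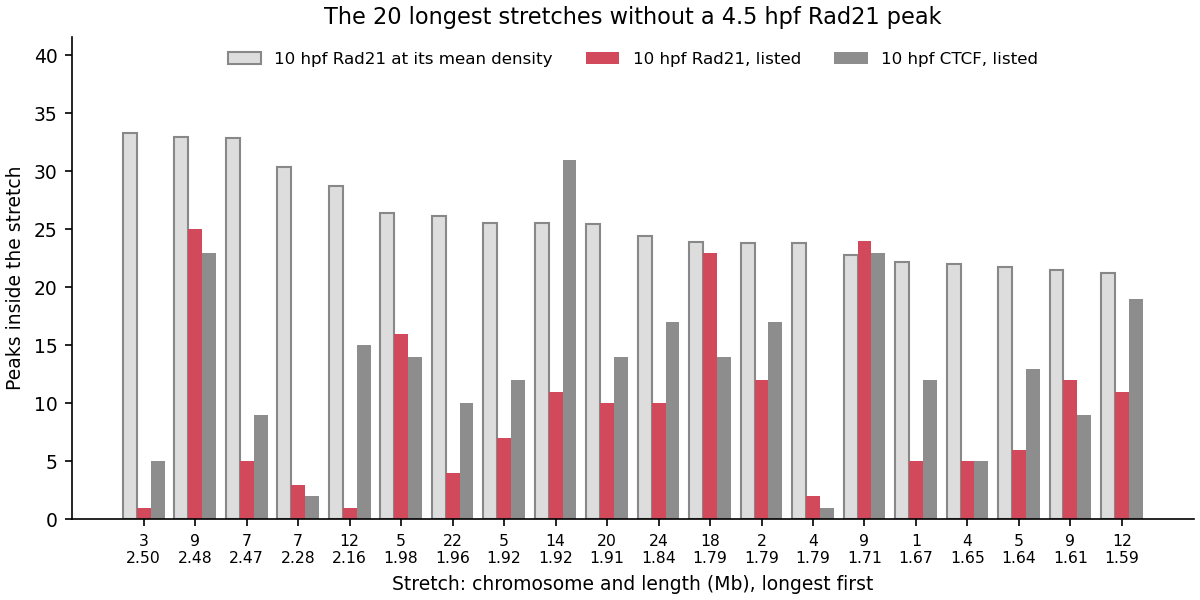
The 20 longest stretches without a Rad21 peak at 4.5 hpf, named by chromosome and length in Mb, with the Rad21 and CTCF peaks of 10 hpf inside each and the number of 10 hpf Rad21 peaks at that list's mean density. The stretches on chromosomes 18 and 9 (1.71 Mb) come close to that number, and those on chromosomes 3 and 12 (2.16 Mb) hold 1 peak each.

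Early rows of the deposited list held more crowded peaks than late rows, without a steady change between. In the first decile of the rows 21.0% of peaks (18.1 to 24.2) belonged to a run, in the second 22.1% (19.1 to 25.4) and in the last 14.0% (11.5 to 16.7), a drop of 7.02 percentage points (2.99 to 11.04) from first to last. From the fifth decile on the share in runs stayed between 13.4% and 15.3%. The median distance to the nearest peak of the whole list went from 35.4 kb in the first decile to 61.5 kb in the last. Peaks within 500 kb of a chromosome end made up 6.44% (4.76 to 8.50) of the first decile and 2.52% (1.50 to 3.95) of the last. Chromosome 4 held 22 peaks of the first decile, 12 of the fifth and 40 of the last, with 16 of those 40 beyond 24 Mb. The header names no sorting for the rows, and the score is 1 in all of them.

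The first 10 rows were spread over the genome. After the first row came 3:61219710-61219878, 4:2133833-2134001, 16:29670633-29670801, 21:41891124-41891292, 7:27753127-27753295, 19:47866784-47866952, 20:28868489-28868657, 4:6743458-6743626 and 23:2435013-2435181. None of these first 10 peaks belonged to a run, where 21.0% of the first decile did. Their nearest neighbours lay 30.7 to 113.8 kb away, where the median of the first decile was 35.4 kb. On chromosome 4 lay 3 of them, where 3.08% of the first decile did. Of the 10, 9 overlapped a Rad21 peak of 10 hpf, all but the first row, and 0 overlapped a CTCF peak, where 11.1% of the first decile did. The last 3 rows were 12:19734951-19735119, 19:1560910-1561078 and 3:38634824-38634992, of which the second lay 5.98 kb from another peak and was the only one of the 3 found at 10 hpf. Over the deciles the share found at 10 hpf went from 92.7% in the first to 13.6% in the last.

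Peaks in runs were not found again more often in every part of the list. Within deciles, peaks in runs were found at 10 hpf more often than peaks alone in 6 of 10. The margin was narrow in some, such as 62.0% against 61.6% in the third. Early rows held more runs and were found more often. The 3.27 points over all rows do not hold this order fixed, and a single value that does was not computed. Their sign therefore cannot be carried over to peaks at the same place in the list. The widest margins within deciles went to peaks alone, in rows 715 to 1428 and in rows 2144 to 2857. In every other decile the intervals of both shares overlapped. In the first decile 90.7% (84.8 to 94.8) of peaks in runs were found, against 93.3% (90.9 to 95.2) of peaks alone. In the second decile 65.8% (57.9 to 73.2) of peaks in runs were found, against 79.1% (75.5 to 82.4) of peaks alone, and in the fourth 37.0% (28.9 to 45.8) against 51.6% (47.5 to 55.8). In the last decile the shares were 18.0% (11.03 to 26.9) and 12.8% (10.3 to 15.8).

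**Figure D5:**
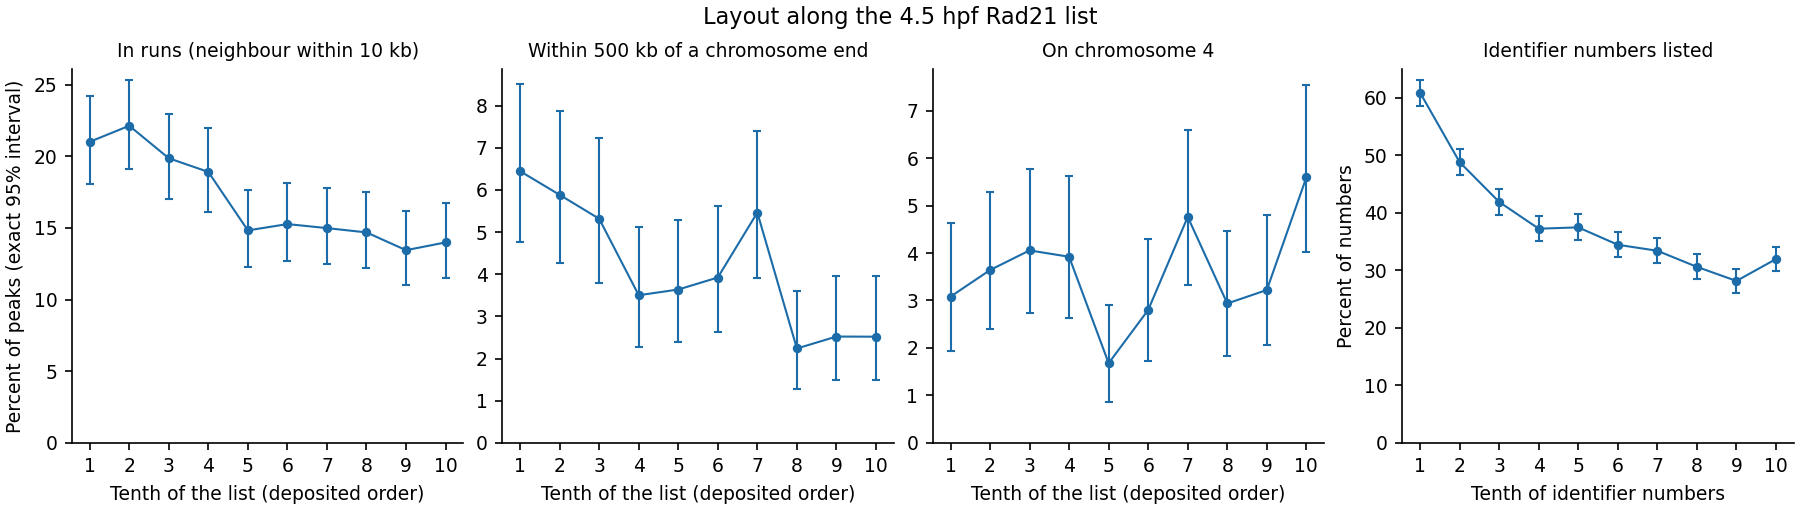
From left, percent of Rad21 peaks at 4.5 hpf that belong to runs, that lie within 500 kb of a chromosome end and that lie on chromosome 4, in deciles of the deposited order, and percent of identifier numbers that are listed, in deciles of the numbers, all with exact 95% intervals. From first to last decile runs go from 21.0% to 14.0%, ends from 6.44% to 2.52% and listed numbers from 60.9% to 32.0%, none of them falling at every step.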

How the data were processed

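Binding of Rad21 at 4.5 hpf was measured in 2 libraries with 2 inputs, sequenced as 50 bp single-end reads to 20000000 reads per sample, per the labels' protocols. Bowtie2 2.2.1, HOMER and the Zv9 build are named in the submitters' processing notes. Per the file headers, the authors called peaks with HOMER findPeaks from 1 Rad21 and 1 input tag directory, taken as pools of both libraries, which the header does not state. The header gives 14255160 tags, and its tags per bp times its genome size comes to 82.6% of them, read as the tags left with 1 tag per position. The deposited score is 1 in every row, and every peak is 169 bp wide. Other column values used are peak positions, given 1-based.

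A chromosome's length was the largest end over the 4 lists, in all 99.9% of the header's genome size. Distances ran between centres, runs linked centres at most 10 kb apart, and overlap meant at least 1 bp. Shares have exact Clopper-Pearson intervals, counts exact Poisson intervals, and differences of shares intervals combined from the exact bounds. The functions were tested on simulated lists. The text names the first 10 and last 3 rows, the 5 largest runs, closest pairs, longest empty stretches and densest windows, the 3 densest and sparsest chromosomes and the 3 loneliest peaks. Members and rules were chosen with earlier results of these data known, and the readings of the identifier numbers and of single ends after the files were seen. The block of twentieths 8 to 12 was not set in advance. No genes or sequences are given, as no Zv9 genome or annotation was used here. Python 3.11.15, pandas 2.3.3 and scipy 1.17.1 were used.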

Additional observations from a re-analysis of the deposited data

How the results depend on the processing

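With 1 pooled list no replicate could be left out, and no paired analysis was possible because the list carries no value per library. Of 51 alternatives 31 stayed within the main value's interval, or within 1.5 times a main count, and 20 moved, none to the other direction. With the first 3572 rows only, chromosome 19 stood at 1.40, chromosome 24 at 0.68 and chromosome 18 at 0.97 times the mean density, the outer 5% at 1.35 times, the median distance was 84.8 kb, 12.3% of peaks lay in 210 runs, 15.05% of windows were empty and the longest empty stretch was 6.33 Mb. A list with fewer peaks also has longer distances, fewer runs and more empty sequence. How much of these shifts comes from the smaller number of peaks was not tested, nor was the cause of the shifted ratios to the mean. The outer 10% stood at 1.04 times the mean (0.99 to 1.10), an interval that includes the mean. The outer 1 Mb stood at 1.77 times (1.61 to 1.94), against 1.22 (1.14 to 1.30) for the outer 5%. Linking distances of 5, 20 and 50 kb gave 309, 918 and 1432 runs with 8.90%, 28.6% and 51.8% of peaks. Windows of 0.5 and 2 Mb were empty in 14.6% and 0.289% of cases, and the fullest 2 Mb window held 30 peaks. Leaving out chromosome 4 moved none of the values it was tried on. The difference of 3.27 percentage points between runs and single peaks at 10 hpf became 3.02 (-0.042 to 6.11) with overlap over 50% of a peak and 6.18 (3.06 to 9.31) with centres within 1 kb. No alternative for this difference held the place in the list fixed, so its direction with the place held fixed was not tested.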

Other observations

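Sequence without Rad21 peaks at 4.5 hpf was unevenly shared among the chromosomes. Chromosomes 5 and 9 each held 3 of the 20 longest stretches without a peak and chromosomes 4, 7 and 12 each held 2. Chromosome 4 had the most sequence in empty stretches of over 1 Mb, 19.0 Mb, followed by chromosome 24 with 11.6 Mb and chromosome 5 with 11.4 Mb. These totals are not divided by chromosome length, which was 62.1 Mb for chromosome 4, 43.9 Mb for chromosome 24 and 75.7 Mb for chromosome 5. Chromosome 10 had none, and its longest stretch was 0.93 Mb. The stretch of 1.96 Mb on chromosome 22 from 28464294, without a Rad21 peak at 4.5 hpf, held 25 peaks of the 2.5 hpf list, and the one of 1.79 Mb on chromosome 4 from 47073832 held 14, while the other 18 held 0 to 2. The 2.5 hpf list was made from another kind of library and with another peak caller, and stage and method cannot be told apart there.

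The near end of chromosome 1 held 16 peaks in its first 1 Mb, of which 14 were among the first 3572 rows and 12 were found at 10 hpf. The window of chromosome 25 from 36 Mb also held 16, of which 12 were among the first 3572 rows and 3 were found at 10 hpf. Over all peaks 41.2% were found at 10 hpf. Both windows were picked after their values were seen.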
